A study of Mus musculus with 4 samples.

Results

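Cells with transcripts of both Flt3 and Satb1 but none of 9 stem cell, lymphoid, dendritic, erythroid, granulocyte and monocyte genes were examined in mouse bone marrow. Flt3 encodes a cytokine receptor tyrosine kinase, and Satb1 encodes a chromatin organizer. The cells came from 4 single-cell RNA-seq libraries of LSK cells, a bone marrow sort for Kit and Sca-1 without lineage markers that holds stem cells and early progenitors. A cell was chosen by its raw UMI counts (unique molecular identifiers, one for each captured transcript). It needed at least 1 UMI of Flt3 and of Satb1, and 0 UMIs of Hlf, Procr, Mecom, Dntt, Il7r, Siglech, Gata1, Cebpe and Ly86. Of 34320 cells kept after quality filtering, 571 (1.66%) met this gate, with 184 in Yoda1 1, 109 in Yoda1 2, 144 in Control 1 and 134 in Control 2.

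The Yoda1 group were wild-type mice injected intraperitoneally for 2 weeks with Yoda1, a synthetic agonist of the mechanically gated channel Piezo1. The control group were wild-type mice labelled as control, which the extraction text calls vehicle-treated. Each group had 2 libraries. The labels give neither the age nor the sex of the mice, nor whether the libraries of a group came from separate mice or pools, so the p-values reflect library-to-library spread alone, and that spread may be technical. The labels name both a 10x Genomics kit and a Singleron microwell chip.

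Flt3 is read on early progenitors as the stem cell programme fades and lymphoid and myeloid options are both present. Cells at this step carry low levels of lymphoid transcripts, such as the sterile Ighm transcript and Notch1, beside transcripts of myeloid granule proteins such as Mpo. Satb1 rises along the lymphoid side, while Dntt and Il7r mark the later lymphoid-primed and common lymphoid steps.

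Libraries stood apart in ways that touch every comparison. The kept cells of a library held 89058521 to 110493533 UMIs, with median UMIs per cell of 10183.5 in Yoda1 1 and 7311 in Yoda1 2, against 11220 in Control 1 and 9410.5 in Control 2. Flt3 and Satb1 were detected together in 23.5% and 39.3% of kept cells in Yoda1 1 and Yoda1 2, against 24.8% and 31.9% in Control 1 and Control 2. For the summed UMIs of the gated cells, chi-square per degree of freedom was 2.93 or more for each pair of libraries. That value treats UMIs as independent, while UMIs of a gene clump in single cells. It therefore does not separate library differences from the sampling of cells. Of 36805 barcodes, 146 occurred in 2 libraries, and no barcode was shared between gated cells of different libraries. No doublet caller was run.

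The markers given with the label were Flt3, Satb1, Wfdc17 and Ccl3, of which the first 2 chose the cells. Wfdc17, which encodes a secreted protein with a WAP four-disulfide core, and Ccl3, which encodes the chemokine MIP-1 alpha, were not used by the gate. Both lie on chromosome 11 in GRCm38, Ccl3 at 83647844 to 83649355 on the minus strand and Wfdc17 at 83703991 to 83706268 on the plus strand, with 54635 bases between them. Being left out of the gate does not make them independent of these data, since they came with the label. Their promoter windows from RefSeq (GRCm38.p6, 250 bases before and 50 after the annotated start) are shown because the gate did not use these 2 markers. Capitals mark matches on either strand to GAGGAA (a core read by PU.1, the product of Spi1), TGTGGT (a RUNX core) and TATAAA.

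Wfdc17, chr11:83703806-83704105, plus strand: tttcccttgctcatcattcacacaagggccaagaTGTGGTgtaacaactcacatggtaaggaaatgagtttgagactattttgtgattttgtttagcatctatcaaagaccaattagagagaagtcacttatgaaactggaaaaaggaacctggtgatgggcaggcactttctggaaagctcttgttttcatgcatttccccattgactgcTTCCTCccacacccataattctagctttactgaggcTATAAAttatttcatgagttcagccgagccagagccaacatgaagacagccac

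Ccl3, chr11:83649329-83649628, minus strand: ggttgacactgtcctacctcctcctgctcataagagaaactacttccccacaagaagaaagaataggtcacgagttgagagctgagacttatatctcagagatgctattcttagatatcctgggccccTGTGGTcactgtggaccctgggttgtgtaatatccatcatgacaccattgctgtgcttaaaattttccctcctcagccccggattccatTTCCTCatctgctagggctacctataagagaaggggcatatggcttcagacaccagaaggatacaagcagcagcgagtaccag

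Each window held 1 GAGGAA on the reverse strand, beginning 39 bases before the start in Wfdc17 and 33 bases before it in Ccl3. Each also held 1 TGTGGT on the forward strand, 216 and 122 bases before the start. Wfdc17 alone of the pair held TATAAA, 3 bases before its RefSeq start. No matches overlapped. Of 32851 promoter windows in the table, 28.3% held GAGGAA, 16.8% TGTGGT and 13.6% TATAAA, so these letters are common and a match describes the window only.

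In the gated cells Wfdc17 stood at 157 and 340 CPM (UMIs per 1000000, summed over the cells of a library) in Yoda1 1 and Yoda1 2, against 176 and 286 CPM in Control 1 and Control 2. The second library of each group was the higher one, and the groups overlapped. Ccl3 stood at 23.7 and 54.2 CPM in the Yoda1 libraries and at 25.9 and 44.3 CPM in the controls, with the same order. Ccl4, the neighbouring chemokine MIP-1 beta, was at 21.2 and 51.9 CPM in Yoda1 and at 18.6 and 51.7 CPM in control.

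Wfdc17 was detected in 328 of the 571 cells (57.4%), in 54.9% and 65.1% of the gated cells of Yoda1 1 and Yoda1 2 and in 54.2% and 58.2% of those of Control 1 and Control 2. Free RNA in the suspension puts UMIs into cells that do not make a transcript. Erythroid-type cells (at least 1 UMI each of Klf1 and Car1, none of Flt3) were taken as a stand-in for this. Whether they make some of these transcripts themselves, or include doublets, was not tested. Of them 14%, 18%, 9.78% and 10.5% held Wfdc17 in Yoda1 1, Yoda1 2, Control 1 and Control 2. Those cells were deeper, with median UMIs of 13718.5 to 15640, against 6432 to 10123.5 in the gated cells. With every cell thinned to 3000 UMIs, Wfdc17 was found in 30.1% and 44.0% of gated cells in Yoda1 and 29.7% and 39.7% in control, against 1.73% to 3.90% of erythroid-type cells. Ccl3 was found in 8.74% and 17.0% of thinned gated cells in Yoda1 and in 10.1% and 11.9% in control. The contrast with erythroid-type cells does not make Wfdc17 particular to the gate. A list of 9 WAP four-disulfide core genes with Wfdc17 summed to 214 and 370 CPM in gated cells of Yoda1 and 218 and 354 CPM in those of control. In all other kept cells it summed to 215 and 294 CPM in Yoda1 and to 156 and 255 CPM in control. It was thus no higher in the gated cells of Yoda1 1.

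The pair tended to be found in the same cells. A Wfdc17 UMI was present in 78 of 105 gated cells with Ccl3 (74.3%) and in 250 of 466 without it (53.6%). The difference had the same sign in every library: 63.3% against 53.2% in Yoda1 1, 92.0% against 57.1% in Yoda1 2, 76.0% against 49.6% in Control 1 and 68.0% against 56.0% in Control 2. Cells with Ccl3 had the lower median UMI count in each library (6023 to 7069.5, against 6473.5 to 11132), and the part of depth in this difference was not tested. Neither gene was seen in 216 cells.

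The label calls the cells lymphoid-myeloid. The early lymphoid list summed to 2166.1 and 2702 CPM in Yoda1 and to 2269 and 4569 CPM in control, against 810 to 921 CPM in erythroid-type cells. Ighm alone gave 2041 CPM of the sum in Control 2, of which 1 cell held 94.7%. In the other kept cells the list summed to 1769 and 2718 CPM in Yoda1 and to 1712 and 2169 CPM in control. Those cells were thus slightly above the gated cells in Yoda1 2. The myeloid list summed to 4225 to 12402 CPM over the libraries, against 1518 to 5242 CPM in erythroid-type cells. In the other kept cells it summed to 4970 to 13920 CPM, higher than in the gated cells in every library. Counts of detected genes separate the gated from the erythroid-type cells less. In the gated cells 16 of 24 early lymphoid and 18 of 18 myeloid genes averaged over 10 CPM, against 13 and 12 in erythroid-type cells. Rag1, a recombinase subunit and a member of the early lymphoid list, had UMIs in 0 of the 571 cells. This allows a share of cells with a UMI of up to 0.525% and sets no limit on cells that express it below detection. Klf1, Car1 and the other megakaryocyte-erythroid genes summed to 702 and 1266 CPM in Yoda1 and to 877 and 864 CPM in control. The erythroid-type cells, at 7935 to 9291 CPM, were chosen for Klf1 and Car1, and the gated cells for 0 UMIs of Gata1. That contrast was thus partly fixed by the choice of cells. In the other kept cells, which include the erythroid-type cells, these genes summed to 3000 and 1917 CPM in Yoda1 and to 3837 and 3446 CPM in control. Cd34, a surface protein of early progenitors, was at 452 and 556 CPM in Yoda1 and at 432 and 519 CPM in control. Kit stood at 116 and 135 CPM in Yoda1 and at 104 and 162 CPM in control, and Cd48, a SLAM-family protein gained as multipotent cells leave the stem cell state, at 191 and 152 CPM against 152 and 205 CPM.

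Mpo, myeloperoxidase, was at 2477 and 671 CPM in Yoda1 1 and Yoda1 2, against 3962 and 2208 CPM in Control 1 and Control 2, lowest in Yoda1 2 with the groups overlapping. It was found in 523 of 571 cells (91.6%), but erythroid-type cells also held it in 40.5% to 94.4%. After thinning it was found in 87.4% and 60.0% of gated cells in Yoda1 and 96.4% and 88.9% in control, against 45.1%, 12.6%, 61.5% and 38.7% of erythroid-type cells in the same libraries. Its level in the erythroid-type cells, 593 and 30.4 CPM in Yoda1 and 1073 and 374 CPM in control, put the libraries in the same order. Elane, neutrophil elastase, was at 285 CPM in gated cells of Yoda1 1 and 730 CPM in those of Control 1, below the 358 and 792 CPM of erythroid-type cells there, and is not read as expressed at those levels.

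Single cells varied along the 2 programmes. Per 10000 UMIs of a cell, the early lymphoid list took a median of 22.6 and 27.5 UMIs in Yoda1 1 and Yoda1 2, against 23.7 and 27.2 in Control 1 and Control 2. The myeloid list took 70.6 and 35.6 in Yoda1 and 96.4 and 66.9 in control, so the lymphoid medians lay closer together than the myeloid ones. Within each library cells with more of one list tended to have less of the other, with Spearman's rho across cells of -0.52 in Yoda1 1, -0.33 in Yoda1 2, -0.40 in Control 1 and -0.45 in Control 2. These are descriptions over 184, 109, 144 and 134 cells, in which both lists are shares of the same total. The plot of single cells shows this.

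**Figure D1:**
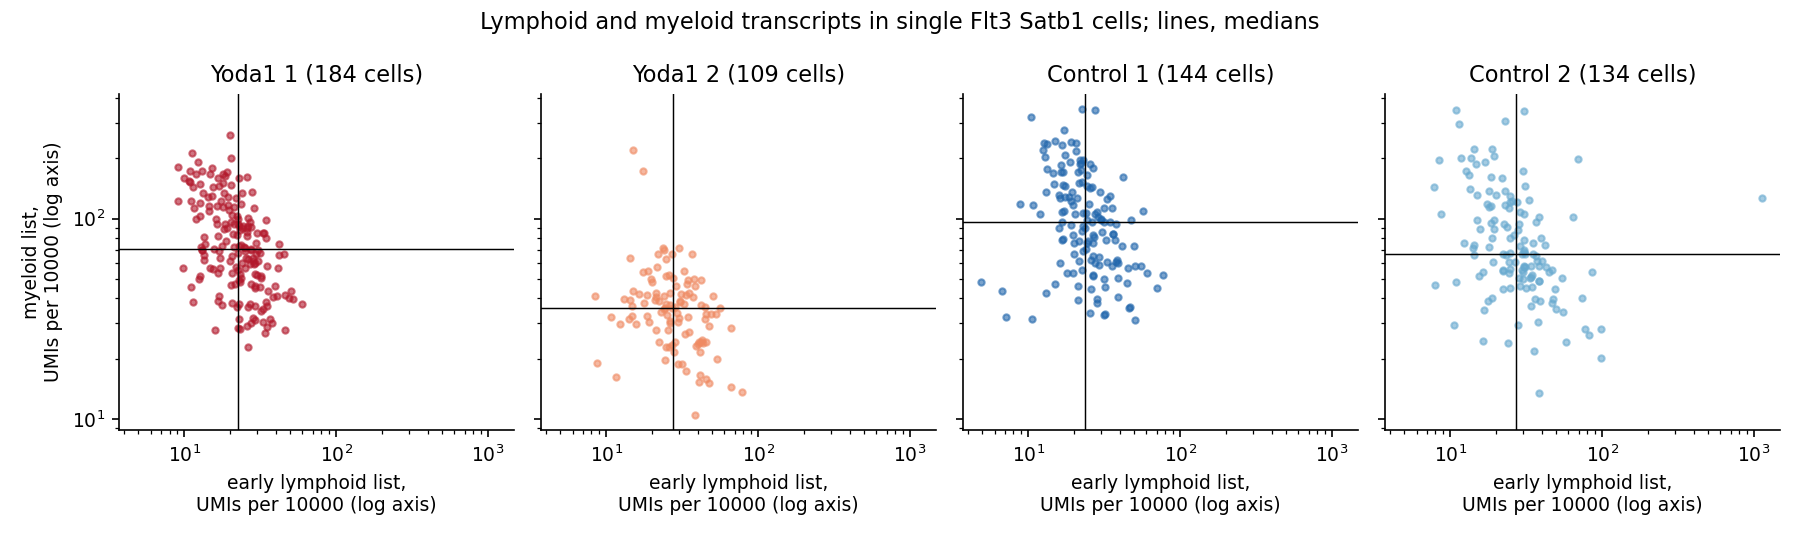
UMIs per 10000 of the early lymphoid list (x, log axis) and of the myeloid list (y, log axis) in each gated cell, one panel a library, Yoda1 left of control; lines are medians. The myeloid median is 35.6 in Yoda1 2 and 66.9 to 96.4 in the other libraries, and 1 Control 2 cell far to the right holds most of that library's Ighm UMIs.

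Single gated cells held most of a library's UMIs of some genes. Whether these were cells of another type or doublets was not tested. One Control 2 cell held 94.7% of that library's 2487 Ighm UMIs and 99.8% of its 3497 Igkc UMIs; Igkc encodes the immunoglobulin kappa constant region. One Yoda1 2 cell held 92.3% of 300 UMIs of Pf4, a platelet chemokine. Prss34, a basophil protease, came from 1 cell for 97.4% of its UMIs in Yoda1 2 and for 89.8% in Control 2. Ighm was at 152, 152 and 155 CPM in Yoda1 1, Yoda1 2 and Control 1 and at 2041 CPM in Control 2.

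Wfdc17 and Mpo overlapped across the edge of the gate, while MHC class II genes did not on the side without Satb1. The 194 gated cells with exactly 1 Flt3 and 1 Satb1 UMI had 99.0 to 251 CPM of Wfdc17, and the 439 cells that met every condition but had no Satb1 UMI had 119 to 329 CPM. The 790 cells with Satb1 but no Flt3 had 69.8 to 320 CPM. Mpo ranged over 557 to 4139 CPM just inside and over 534 to 3219 CPM just outside for want of Satb1. MHC class II genes summed to 291 to 415 CPM in all gated cells and to 265 to 563 CPM just inside. In the cells without Satb1 they summed to 580 to 3163 CPM. Megakaryocyte-erythroid genes summed to 702 to 1266 CPM in all gated cells, against 1463 to 2263 CPM in the cells without Satb1. Just inside the gate they ran from 687 CPM in Yoda1 1 to 2699 CPM in Yoda1 2, which overlapped. Mast cell and basophil genes summed higher without Flt3, at 875 to 3269 CPM, than in all gated cells, at 93.8 to 718 CPM. Just inside the gate they ran from 55.2 CPM in Yoda1 2 to 2247 CPM in Control 2, which again overlapped.

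Among the 10369 cells with both Flt3 and Satb1, the gate kept 8.57% and 2.84% in Yoda1 1 and Yoda1 2, against 7.62% and 5.37% in Control 1 and Control 2. Dntt, which encodes terminal deoxynucleotidyl transferase, was present in 62.2% of these cells, the stem cell transcription factor Hlf in 54.3%, Mecom in 23.7% and Ly86 in 21.2%. In Yoda1 2, 70.9% of them had Hlf, against 41.8% in Yoda1 1, 47.4% in Control 1 and 44.5% in Control 2. The gate therefore takes the minority in which none of the 9 genes was caught.

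Levels were set beside 3 other Flt3-positive gates, as a description with no test because all gates read the same cells' UMIs. These were a multipotent gate (Hlf present, Dntt and Il7r absent, 4278 cells), a lymphoid-primed gate (Dntt present, Hlf and Il7r absent, 2873 cells) and a monocyte-side gate (Ly86 present, Hlf, Dntt and Il7r absent, 1122 cells). Genes were counted where they differed over 2-fold in the same direction in every library, on the log2(CPM + 1) scale, with a mean of at least 20 CPM.

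The gated cells were nearest to the multipotent and lymphoid-primed cells by this count. Against multipotent cells 0 of 6012 genes were higher (0%) and 10 lower (0.166%). The lower genes included the MHC class II genes H2-Eb1 and H2-Aa and the invariant chain Cd74, with median log2 ratios of -2.98, -2.83 and -2.71. Also lower were Pdzk1ip1, a membrane protein used as a stem cell marker, with a median of -1.98, and the erythroid carbonic anhydrase Car1, with one of -2.79. The WAP four-disulfide core list, which holds Wfdc17, summed to 211 and 243 CPM in multipotent cells of Yoda1 and 146 and 257 CPM in those of control. In the gated cells it summed to 214 and 370 CPM in Yoda1 and to 218 and 354 CPM in control.

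Against lymphoid-primed cells 1 of 5838 genes was higher (0.0171%) and 5 were lower (0.0856%). The higher one was Cpa3, a mast cell carboxypeptidase, at 60.5 and 69.2 CPM in gated cells of Yoda1 and 113 and 106 CPM in those of control, against 18.6 to 47.9 CPM. In Yoda1 2 it was found in 6 gated cells, of which 1 held 58.3% of its 60 UMIs, so its place on this list rests on few cells. The lower ones were Car1, the cytochrome oxidase subunit Cox6a2 (-2.37), the thromboxane receptor Tbxa2r (-1.57), the actin regulator Evl (-1.56) and Il12a (-1.53), a subunit of interleukin 12. Notch1 stood at 46.4 to 64.6 CPM in the gated cells, against 80.9 to 119 CPM in lymphoid-primed cells. Ighm, outside the single Control 2 cell, was also below its 310 to 717 CPM in lymphoid-primed cells. Wfdc17, at 312 to 544 CPM there, was higher in lymphoid-primed than in gated cells in every library.

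Against monocyte-side cells 46 of 5709 genes were higher (0.806%) and 34 lower (0.596%). Higher were Ctla2a (median log2 ratio 2.69), a cysteine protease inhibitor, Rgs1 (2.58), a regulator of G-protein signalling, Gimap6 and Gimap1 (2.48 and 2.46), GTPases of lymphoid and early blood cells, and Wfdc17, Ccl4 and Ccl3 (2.44, 2.48 and 2.38). Ctla2a was at 381 and 785 CPM in gated cells of Yoda1 and 332 and 558 CPM in those of control, against 65.1 to 84.0 CPM on the monocyte side. Lower were H2-Aa (-5.09), H2-Eb1 (-4.82), Cd74 (-4.50), Lgals3 (-4.46), which encodes galectin-3, Id2 (-4.10) and Aif1 (-3.82). Irf8, the transcription factor of monocytes and dendritic cells, was at 224 and 61.2 CPM in gated cells of Yoda1 and at 245 and 209 CPM in those of control, against 617 to 1221 CPM.

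Against all other kept cells 0 of 5904 genes were higher (0%) and 15 were lower (0.254%), among them Car1, the eosinophil granule gene Prg2, the water channel Aqp1, S100a8 and Elane. Ccl9, a CC chemokine of myeloid progenitors, was at 298 and 114 CPM in gated cells of Yoda1 and at 305 and 368 CPM in those of control, against 113 and 56.8 CPM in the other kept cells of Yoda1 and 123 and 139 CPM in those of control.

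**Figure D2:**
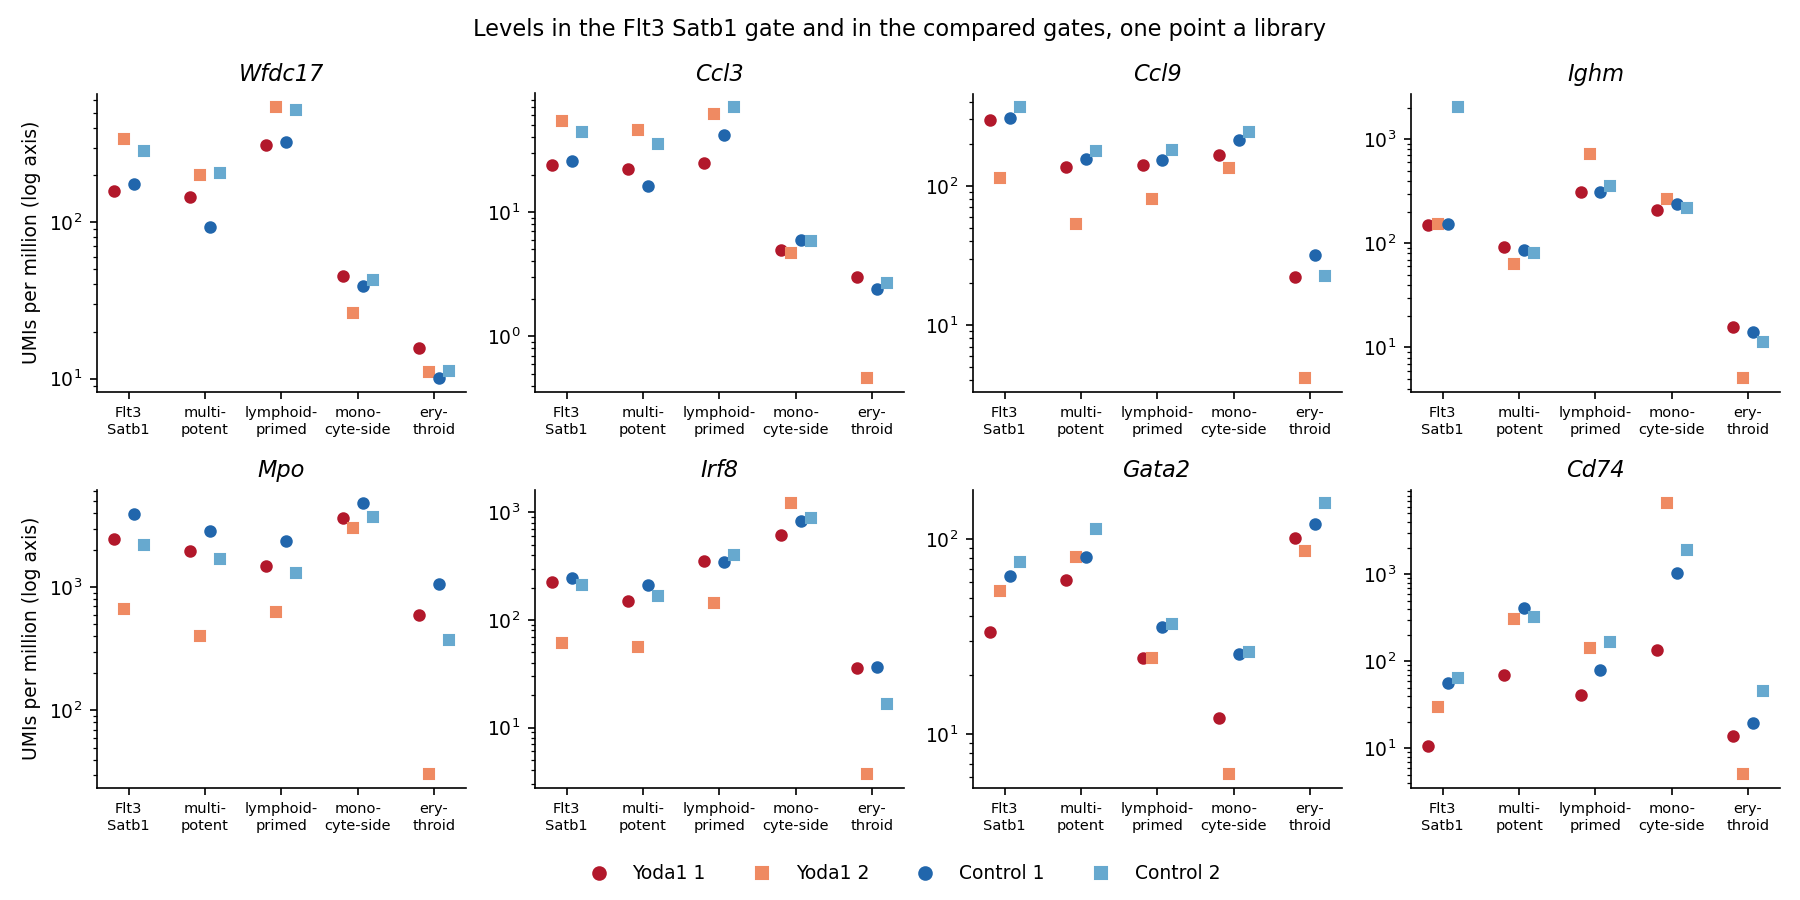
Levels of 8 genes in CPM (log axis) in the gated cells, 3 other Flt3-positive gates and erythroid-type cells; points are libraries, Yoda1 left of control in each gate. Wfdc17 runs from 157 to 340 in the gated cells, 312 to 544 in lymphoid-primed cells and 26.4 to 45.2 on the monocyte side.

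The first treatment comparison asked whether the share of these cells differed. They were 2.02% of kept cells in Yoda1 1 (95% exact binomial interval 1.74 to 2.33%) and 1.12% in Yoda1 2 (0.918 to 1.35%), against 1.89% in Control 1 (1.596 to 2.22%) and 1.71% in Control 2 (1.44 to 2.03%). The Yoda1 libraries lay on either side of both controls, and the difference of the group means, -0.23 percentage points, had p = 1.0 in a two-sided exact permutation test over libraries, whose smallest possible p is 0.3333. Since a gate of absent genes depends on depth, it was also applied after thinning each cell to 3000 UMIs. The shares were then 1.27% and 1.70% in Yoda1 1 and Yoda1 2, against 1.45% and 1.78% in Control 1 and Control 2, and the exact permutation p was 0.667. Thinning turned the order of the Yoda1 libraries round. Only 143 of the 571 gated cells were among the 514 that passed the thinned gate, so which cells pass depends strongly on which UMIs were caught.

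**Figure D3:**
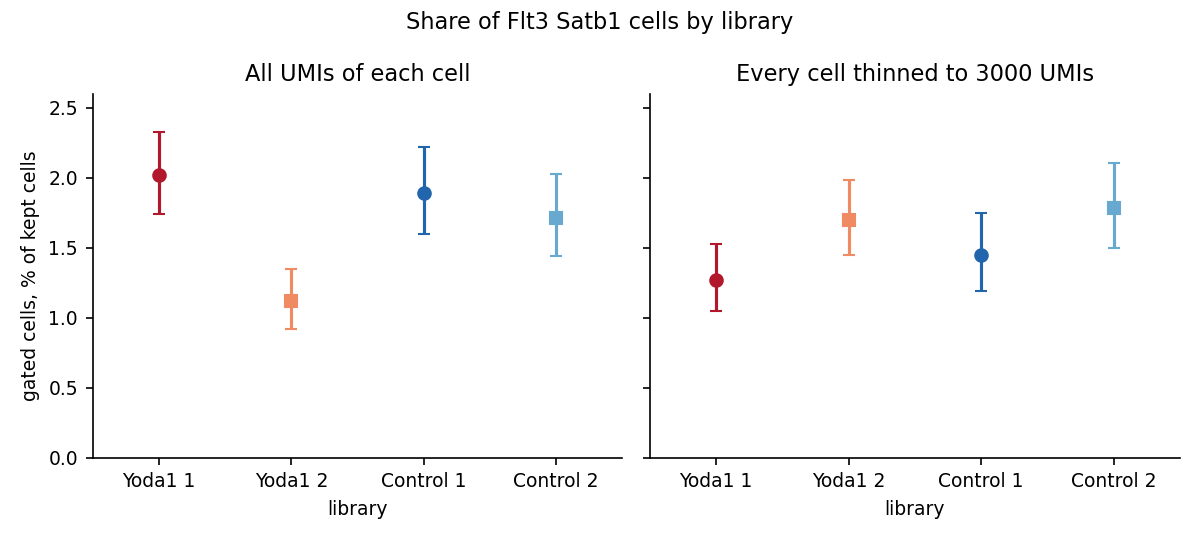
Share of kept cells that passed the gate in each library, with all UMIs (left) and after thinning (right); points are libraries and bars are 95% exact binomial intervals, which cover counting error only. Yoda1 2 is lowest with all UMIs (1.12%) and Yoda1 1 is lowest after thinning (1.27%).

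The next comparison asked which transcripts of the gated cells differed between Yoda1 and control. Summed per library the cells held 1982814 and 866501 UMIs in Yoda1 1 and Yoda1 2, against 1507879 and 1218666 in Control 1 and Control 2. With edgeR (quasi-likelihood, Benjamini-Hochberg threshold 0.05), 0 of 9216 genes (0%) passed. Without adjustment, 102 genes had p under 0.05 on the higher side and 125 on the lower side. limma-voom called 0 as well (98 higher and 139 lower unadjusted), as did DESeq2 (17 and 21). With no filter on low counts edgeR called 37 genes, 17 higher and 20 lower. Both Yoda1 libraries lay above both controls for 1192 genes (12.9%) and below both for 1476 (16%). Leaving out Yoda1 1 gave 72 calls, 54 of them lower, and leaving out Yoda1 2 gave 62, 43 of them higher, so the libraries of the Yoda1 group differed from the controls in unlike ways; without Control 1 there were 3 calls, and without Control 2 there were 0.

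None of the genes below passed the test with the filter (edgeR adjusted p of 0.9999 for each). With no filter Sergef, Iigp1, H2ac4, Csrp3, Hdc, Ms4a2 and Cd74 of them passed. Their levels are the same in both fits, and their values are given as the strongest leads under the naming rule. On the higher side Iigp1, an interferon-inducible GTPase, was at 88.3 and 39.2 CPM in Yoda1 1 and Yoda1 2, against 12.6 and 26.3 CPM in Control 1 and Control 2 (log2 fold change 1.84 ± 0.43 SE). It was found in 88 gated cells of Yoda1 1 but in 8 of Yoda1 2 and 9 of Control 2, where 1 cell held 38.2% and 53.1% of its UMIs. Lck, a Src-family kinase of T cells, was at 15.1 and 23.1 CPM in Yoda1 and at 6.63 and 4.92 CPM in control (1.64 ± 0.43), from 66 UMIs in all. Psmg1, a proteasome assembly chaperone, was at 76.2 and 64.6 CPM in Yoda1 and at 43.1 and 45.95 CPM in control (0.69 ± 0.21).

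Sergef was at 26.2 and 26.5 CPM in gated cells of Yoda1, against 7.96 and 11.5 CPM in those of control (1.47 ± 0.34). When the gate was applied to thinned cells its log2 fold change was -0.02, so it rested on which cells passed. The replication-dependent histone genes H2ac4 (1.54 ± 0.38) and H2bc11 (1.14 ± 0.34) were higher in both Yoda1 libraries, while H2bc4 was lower (-0.83 ± 0.20). Histone genes are near-identical copies, and how reads were split between them is not given in the sources used here.

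On the lower side were genes of mast cells and basophils. Hdc, which makes histamine, was at 7.57 and 4.62 CPM in Yoda1 and at 27.9 and 26.3 CPM in control (log2 fold change -2.02 ± 0.37). Ms4a2, the beta chain of the IgE receptor, was at 1.01 and 9.23 CPM in Yoda1 and at 27.2 and 41.0 CPM in control (-3.14 ± 0.62), from 2, 3, 6 and 7 cells. Cpa3 had -0.75 ± 0.19. Csrp3, a LIM-domain protein best known from muscle, was at 4.03 and 8.08 CPM in Yoda1 and at 23.9 and 32.0 CPM in control (-2.33 ± 0.42) and was likewise found in 2 to 7 cells a library. Hdc outside the gate was at 23.4 and 10.4 CPM in Yoda1 and at 48.3 and 52.8 CPM in control, and in erythroid-type cells at 9.18 and 1.38 CPM against 22.7 and 22.7 CPM. Its level was thus lower in Yoda1 also in cells outside the gate, and the part of free RNA in the gated cells was not tested. All 5 measured members of the mast cell and basophil list had a lower fitted level (median log2 fold change -1.16, against 0.00 over all genes tested). Of these, 3 lay below both controls in both Yoda1 libraries, against 16% of all genes. Prss34, also of this list, had 97.4% of its UMIs in 1 cell in Yoda1 2, 80.8% in Control 1 and 89.8% in Control 2.

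Cd74 was at 10.6 and 30.01 CPM in Yoda1 and at 57.0 and 64.8 CPM in control (-1.76 ± 0.38), but 1 cell held 77.9% of its UMIs in Control 1 and 1 cell 69.6% in Control 2. Itm2c, a membrane protein, was at 37.3 and 34.6 CPM in Yoda1 and at 66.98 and 62.4 CPM in control (-0.82 ± 0.21), spread over 24 to 68 cells a library. Of the cytokine receptors, Il4ra was at 19.7 and 16.2 CPM in Yoda1 and at 32.5 and 38.6 CPM in control (-0.93 ± 0.28), and Il6st, the gp130 chain shared by interleukin 6-family receptors, at 9.58 and 8.08 CPM against 21.9 and 18.1 CPM (-1.12 ± 0.36). In that list 8 of 22 measured members lay below both controls in both Yoda1 libraries and 2 above. Of all genes tested, 16% lay below and 12.9% above.

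**Figure D4:**
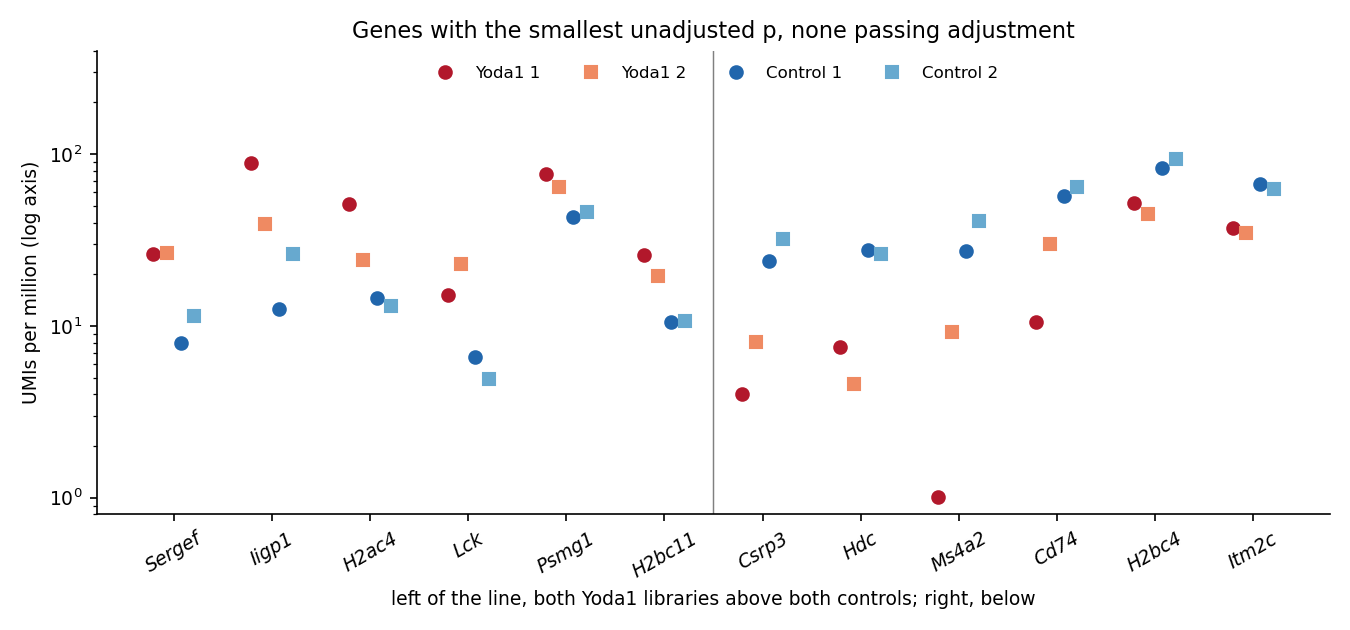
CPM (log axis) of the 12 genes with the smallest unadjusted p, one point a library, Yoda1 left of control. Groups do not overlap for any of them, which the naming rule required, and none passed the adjusted test.

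Myeloid genes were lower in fitted level in 17 of 18 measured members (median log2 fold change -0.67), and 12 of 18 lay below both controls in both Yoda1 libraries, against 16% of all genes. The list summed to 9257 and 4225 CPM in Yoda1 1 and Yoda1 2, against 12402 and 9876 CPM in Control 1 and Control 2. Cebpa, a transcription factor of granulocyte-monocyte fate, was at 40.9 and 32.3 CPM in Yoda1 and at 51.7 and 86.2 CPM in control (-0.85 ± 0.28). Fcgr3, an Fc receptor, was at 4.54 and 8.08 CPM against 13.9 and 19.7 CPM (-1.50 ± 0.46), and Elane had -1.70 ± 0.52 and Mpo -0.94 ± 0.49. None passed over all 4 libraries with the filter on low counts; Elane and Mpo passed with no filter. Without Yoda1 1 Elane (-3.28) and Mpo (-2.21) passed, and without Yoda1 2 Elane (-1.02) passed. Elane in gated cells of Yoda1 1 and Control 1 lay below its level in erythroid-type cells, as given above, and is not read as expressed there. In Yoda1 2, 1 gated cell held 43.4% of the Elane UMIs. In erythroid-type cells the myeloid list summed to 3669 and 1518 CPM in Yoda1 and to 5242 and 3089 CPM in control, where the groups overlapped. In the other kept cells it summed to 11541 and 4970 CPM in Yoda1 and to 13920 and 13295 CPM in control, and in multipotent cells to 8830 and 3813 CPM against 10695 and 9068 CPM. In both of these the groups did not overlap, as in the gated cells. In lymphoid-primed cells the list summed to 7340 and 4357 CPM in Yoda1 and to 9460 and 6949 CPM in control. On the monocyte side it summed to 16005 and 15124 CPM against 15854 and 15149.5 CPM. The groups overlapped in each of these gates. The part of free RNA in the gated cells was not tested. F13a1, a monocyte gene, was at 32.3 and 2.31 CPM in Yoda1 and at 76.3 and 35.3 CPM in control.

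Interferon response genes separated the Yoda1 libraries from each other. In Yoda1 1, 23 of 24 measured members lay above both controls, while in Yoda1 2 there were 4 above both and 16 below both. Of all genes tested, 27.3% lay above both controls in Yoda1 1, and 34.0% lay above and 33.6% below in Yoda1 2. The list summed to 5407 and 1949 CPM in Yoda1 1 and Yoda1 2, against 2622 and 2424 CPM in Control 1 and Control 2. Isg15, a ubiquitin-like antiviral protein, was at 349 and 66.9 CPM in Yoda1 and at 76.9 and 68.1 CPM in control, Ifit1 at 99.4 and 13.8 CPM against 19.2 and 21.3 CPM, and Irf7 at 167 and 19.6 CPM against 65.0 and 48.4 CPM. Bst2, tetherin, was at 605 and 196 CPM in Yoda1 and at 292 and 246 CPM in control. Without Yoda1 1 the log2 fold changes of Isg15, Ifit1, Irf7 and Bst2 were -0.13, -0.55, -1.54 and -0.47. Without Yoda1 2 all 4 passed, at 2.29, 2.33, 1.58 and 1.20, and without Yoda1 1 Irf7 passed in the other direction. Ly6a, which encodes Sca-1 of the sort gate and is itself induced by interferon, was at 323 and 166 CPM in Yoda1 and at 162 and 144 CPM in control (0.72 ± 0.28). The other kept cells showed the same pattern, with sums of 4882 and 1870 CPM in Yoda1 and 2238 and 1935 CPM in control.

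Immediate early genes, switched on within minutes of a stimulus, and Gimap GTPases were higher in the second library of each group. The immediate early list summed to 624 and 1299 CPM in Yoda1 1 and Yoda1 2, against 871 and 1516 CPM in Control 1 and Control 2. Within it 14 of 15 measured members lay below both controls in Yoda1 1 and 3 in Yoda1 2, against 34.7% and 33.6% of all genes. Fos, a subunit of AP-1, was at 16.1 and 25.4 CPM in Yoda1 and at 29.2 and 65.6 CPM in control (-1.23 ± 0.41), and Btg2, an antiproliferative gene, had -0.56 ± 0.24. The Gimap list summed to 178 and 420 CPM in Yoda1 and to 175 and 281 CPM in control, and Gimap1 stood at 66.6 and 181 CPM against 67.6 and 112 CPM. All 5 measured Gimap members lay above both controls in Yoda1 2 and 1 in Yoda1 1, against 34.0% and 27.3% of all genes. In the other kept cells the second library of each group was also higher for both lists. There the immediate early list summed to 643 and 1289 CPM in Yoda1 and to 835 and 1395 CPM in control. The Gimap list summed there to 192 and 564 CPM in Yoda1 and to 177 and 251 CPM in control.

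**Figure D5:**
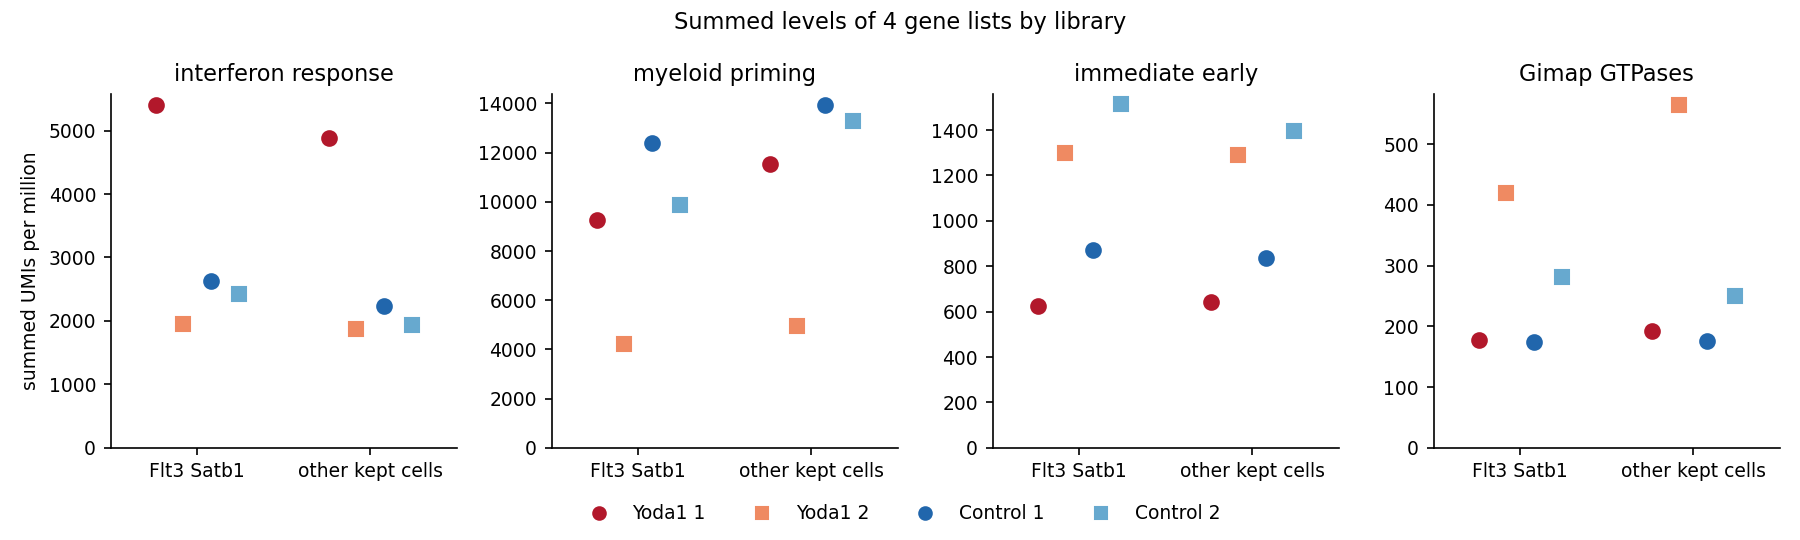
Summed CPM of 4 gene lists in the gated cells and in all other kept cells, one point a library, Yoda1 left of control. Interferon genes reach 5407 in gated cells of Yoda1 1 and lie at 1949 to 2622 in the other libraries.

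Of the monocyte list 0 of 5 measured members were higher and 5 lower in fitted level (median -0.74), with 3 below both controls in both Yoda1 libraries. MHC class II genes had 0 of 6 higher and 6 lower (median -0.56), with 2 below both controls. Adhesion and homing genes had 4 of 17 higher and 13 lower (median -0.11), with 3 below both controls. None of these genes passed with the filter on low counts. Of all genes tested, 4588 were higher and 4628 lower in fitted level. Both Yoda1 libraries lay below both controls for 16% of all genes and above for 12.9%. The early lymphoid list had 10 of 16 measured members higher and 6 lower in fitted level, with a median of 0.01. Cd53, a tetraspanin of blood cells, was at 121 and 91.2 CPM in Yoda1 and at 144 and 154 CPM in control (-0.46 ± 0.20), and Ighm, at -2.84 ± 0.85, was at 0.22 with the top Ighm and the top Pf4 cell of each library left out. Of the FLT3 signalling list, 6 of 18 were higher and 12 lower (median -0.07), with 5 below both controls in both Yoda1 libraries and 1 above. Of the stem cell list, Gata2 was at 33.3 and 54.2 CPM in Yoda1 and at 64.3 and 76.3 CPM in control (-0.73 ± 0.25). Apoe, of the megakaryocyte-erythroid list, was at 129 and 64.6 CPM in Yoda1 and at 232 and 194 CPM in control (-1.08 ± 0.29), under the 856 to 1251 CPM of erythroid-type cells. Among the secreted factors, Ccl9 had -0.66 ± 0.35. Flt3 itself was at 142 and 235 CPM in Yoda1 and at 152 and 187 CPM in control, and Satb1 at 176 and 241 CPM against 186 and 216 CPM, where a minimum of 1 UMI a cell sets the floor.

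Piezo1, the channel that Yoda1 opens, was at 22.2 and 11.5 CPM in gated cells of Yoda1 and at 25.9 and 13.1 CPM in those of control (-0.11 ± 0.42). The other 4 measured mechanosensitive channels had 1 higher and 3 lower fitted levels, and none of the 5 had groups that did not overlap. Of all genes tested, both Yoda1 libraries lay above both controls for 12.9% and below for 16%.

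The last comparison within the gate asked about the cell cycle. At 3000 UMIs a cell, 58.5% and 44.0% of gated cells in Yoda1 1 and Yoda1 2 showed at least 2 of 20 G2/M genes, against 55.1% and 41.3% in Control 1 and Control 2. The groups overlapped, and the difference of 3.06 points had an exact two-sided permutation p of 0.667. Unthinned, the shares were 75% and 55.0% against 76.4% and 61.2%, so the sign depended on depth. Mki67, which encodes Ki-67, was at 254 and 202 CPM in Yoda1 and at 227 and 145 CPM in control (0.31 ± 0.24), and Mcm6, a subunit of the replicative helicase, at 287 and 231 CPM against 177 and 212 CPM (0.44 ± 0.19). G2/M genes had 16 of 20 fitted levels higher (median 0.22) and S phase genes 12 of 20 (median 0.07), with 1 and 3 above both controls in both Yoda1 libraries. Of all genes tested, 4588 were higher and 4628 lower, and 12.9% lay above both controls. Among other kept cells the G2/M share was 63.6% and 39.5% in Yoda1 and 63.8% and 50.2% in control.

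Whether the Yoda1 effect in the gated cells differed from that in all other kept cells was tested as an interaction, with the library as a block. The other kept cells are a mixture whose make-up differed by library. Erythroid-type cells numbered 850 and 111 in Yoda1 and 1278 and 646 in control, and multipotent cells 791 and 1998 against 729 and 760. The part of this make-up in the called interactions was not tested. Of 16954 genes, 15 were called (0.0885%), 6 with a higher and 9 with a lower effect in the gated cells. With the top Ighm and Pf4 cell of each library left out 8 were called, and Igkc, Jchain, Ighm, Iglc2, Pf4, Serpine2 and Sergef were not among them. Pglyrp1, a peptidoglycan-binding granule protein, and Sergef were the called genes of which no cell held more than 10% of a library's UMIs. Pglyrp1 was at 31.3 and 36.9 CPM in gated cells of Yoda1 and at 23.9 and 24.6 CPM in those of control, against 35.7 and 39.6 CPM in the other kept cells of Yoda1 and 62.4 and 62.1 CPM in those of control (interaction 1.24 ± 0.26 log2, edgeR adjusted p = 0.00235). In the gated cells it was above both controls in both Yoda1 libraries, while outside it was below both. Its adjusted p was 0.435 without Control 1 and 0.208 without Control 2 in edgeR, and the change within the gated cells alone did not pass. With at least 2 Flt3 UMIs required 3 genes were called, and with the 9 absent genes dropped from the gate 0 were.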

How the data were processed

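Raw UMI counts per gene and cell barcode were deposited for 4 libraries, written by Cell Ranger 7.1.0 per the file headers. Seurat 4.3.0 and the mouse build GRCm38 (mm10) are listed, with no role, per the submitters' processing notes. How reads on introns were handled, and which annotation was used, is not given in the sources used here.

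A barcode was kept when it held 500 or more genes, 1000 or more UMIs and no more than 10% mitochondrial UMIs. No doublets were removed. The members and gene lists were chosen with earlier results of these data known. UMIs of the gated cells were summed per library, giving 866501 to 1982814 UMIs, and tested with edgeR 4.0.16 (filterByExpr, TMM, quasi-likelihood, Benjamini-Hochberg) in R 4.3.3, which was also tested on simulated data. DESeq2 1.42.0 and limma 3.58.1 were alternatives. The interaction compared the treatment effect in gated and other kept cells with library as a block. Shares were compared by exact permutation over libraries, with 95% Clopper-Pearson intervals that cover counting error only.

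Named genes were, for each direction, the 6 lowest unadjusted p-values (mean of at least 10 CPM, groups not overlapping), up to 3 of each list, and fixed genes. Against other gates they were the 8 largest median ratios in each direction. Not every gene the rule names is printed. That choice, and the naming of Igkc and Prss34, followed their values. Gene positions are from GENCODE M21, with 94.1% of 55357 IDs matched. One gene that the rule names is not reported here.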

Additional observations from a re-analysis of the deposited data

Results flagged for a closer look

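For 15 genes the Yoda1 effect differed between the gated cells and all other kept cells by edgeR's test of that difference (log2, gated minus other cells). The make-up of the other kept cells differed by library, and its part in these values was not tested. Single cells held most UMIs of many of these genes. Igkc (-9.52), Jchain (-15.0), Ighm (-2.27) and Iglc2 (-12.3) came from 1 Control 2 cell for 94.7% to 100% of that library's UMIs. Jchain and Iglc2 had 0 UMIs in the other 3 libraries' gated cells, so their fitted values are no measure of size. Pf4 (2.33) and Serpine2 (1.96) had 92.3% and 92.9% of their Yoda1 2 UMIs in 1 cell. Tcf7 (5.499) had 93.3% of its Yoda1 1 UMIs and 100% of its Yoda1 2 UMIs in 1 cell, and Cxcl9 (4.67) had 96.7% of its Yoda1 1 UMIs in 1 cell.

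Mcpt8 (-0.83) and Prss34 (-0.82), both basophil proteases, were likewise concentrated: 1 cell held 86.4% of the Mcpt8 UMIs of Yoda1 2, against 40% in Control 1 and 46.0% in Control 2. For Prss34, 1 cell held 97.4% in Yoda1 2, against 80.8% in Control 1 and 89.8% in Control 2. Ms4a2 (-2.18) was found in 2 and 3 gated cells of Yoda1 and in 6 and 7 of control. Ly6c2 (-1.43) was at 85.2 and 3.46 CPM in gated cells of Yoda1 and at 143 and 97.6 CPM in those of control, against 389 and 56.2 CPM in other cells of Yoda1 and 255 and 191 CPM in those of control. One Control 2 cell held 59.7% of its UMIs there.

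F13a1 (-1.50) was at 32.3 and 2.31 CPM in gated cells of Yoda1 and at 76.3 and 35.3 CPM in those of control, against 91.7 and 12.03 CPM in other cells of Yoda1 and 73.0 and 42.5 CPM in those of control. Pglyrp1 had 1.24. Sergef (1.46) was at 18.6 and 16.02 CPM in other kept cells of Yoda1 and at 17.4 and 17.2 CPM in those of control, and its adjusted p in edgeR was 0.0508 without the top Ighm and Pf4 cells.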

How the results depend on the processing

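With no filter on low counts 37 genes changed with treatment, and leaving out 1 library gave 0 to 72. The replicate block gave 0; with 2 pairs, whose replicate differences correlated at 0.229, the numbers were not shown to pair the libraries. For the interaction, requiring 2 Flt3 UMIs gave 3 genes, dropping the 9 absent genes 0, leaving out the top Ighm and Pf4 cells (chosen after seeing the data) 8, and leaving out 1 library 4 to 82. The share difference was 3.05 points with the absent genes dropped and -0.68 to 0.22 with a library left out. After thinning it was 0.078 with 2 Flt3 UMIs, 1.05 with the absent genes dropped and -0.34 to 0.082 with a library left out. The G2/M difference was -1.65 with the absent genes dropped and -4.17 to 10.3 with a library left out. Above other kept cells, 1 gene was over 2-fold with the stricter cell filter and 1 without high-UMI cells.

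Log2 fold changes that turned sign, were as follows. With the gate after thinning: Sergef -0.020, Satb1 -0.031, Wfdc17 -0.056, Cd34 -0.073, Kit 0.090 and Il6st 0.019. With 2 Flt3 UMIs: Satb1 -0.017, Wfdc17 -0.010, Ccl3 -0.14, Cd48 0.23 and Pf4 -0.38. With gated cells thinned: Satb1 -0.15 and Ccl4 0.022. With the absent genes dropped: Ccl3 -0.16, Kit 0.12 and Pf4 -0.35. With limma-voom: Ccl3 -0.035. Ccl4 was 0.095 with the replicate block, 0.066 without high-UMI cells, 0.036 without the top cells and 0.057 in DESeq2. Without the top cells: Ighm 0.22, Cd48 0.0037 and Pf4 -0.39. Cd48 was 0.0054 with the stricter filter, and Pf4 -0.39 without high-UMI cells. With a library left out the ranges were Bst2 -0.47 to 1.20, Ccl3 -0.51 to 0.64, Ccl4 -0.66 to 0.88, Cd34 -0.041 to 0.24, Cd48 -0.23 to 0.21, Flt3 -0.22 to 0.47, Gimap1 -0.39 to 1.01, Ifit1 -0.55 to 2.33, Irf7 -1.54 to 1.58, Isg15 -0.13 to 2.29, Kit -0.37 to 0.28, Pf4 -0.25 to 2.89, Piezo1 -0.79 to 0.47, Satb1 -0.16 to 0.26 and Wfdc17 -0.52 to 0.56. Of 707 values for 45 genes, 617 kept direction and side of the threshold, 41 newly passed it and 49 turned sign; the cause was not tested.

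Named genes that passed with no filter were Sergef, Iigp1, H2ac4, Csrp3, Hdc, Ms4a2, Cd74, Mpo, Ighm, Elane, Apoe, Isg15, Ifit1, Fos, F13a1 and Pf4. Without Yoda1 1 those that passed were Hdc (-2.53), Ms4a2 (-1.86), Mpo (-2.21), Ighm (-2.85), Elane (-3.28), Apoe (-1.73), Ccl9 (-1.57), Gimap1 (1.01), F13a1 (-4.56), Pf4 (2.89) and, against its sign over all libraries, Irf7. Without Yoda1 2 they were Iigp1 (2.25), H2ac4 (1.91), Csrp3 (-2.72), Hdc (-1.80), Ms4a2 (-4.93), Cd74 (-2.48), Ly6a (1.11), Ighm (-2.82), Elane (-1.02), Isg15, Ifit1, Fos (-1.49), Irf7 and Bst2, and without Control 1 Ighm (-3.73). With a single library left in a group, it was assumed to vary like the other group.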
